A study of Mus musculus with 5 samples.

Results

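A small set of cells carrying the CD8 transcripts was present among kidney T cells that had been sorted as CD4 T cells. CD8 gate cells were defined by their unique molecular identifiers (UMIs, 1 per captured transcript molecule). A cell belonged when it had at least 500 genes and under 10% mitochondrial UMIs, at least 1 UMI each of Cd3e, Cd8a and Cd8b1, and no UMI of Flt3. This selected 676 of 38417 retained cells, out of 40778 barcodes in 5 libraries. The gate held 68, 155 and 59 cells in knockout libraries 1, 2 and 3, against 313 and 81 in control libraries 1 and 2. They were compared with 27223 cells of the same libraries, called CD8-free T cells, with a Cd3e UMI and none of Cd8a, Cd8b1 or Flt3.

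The study asked what regulatory T cells with the IL-33 receptor ST2, encoded by Il1rl1, do in the injured kidney. All mice were 10 weeks old and had undergone ischemia-reperfusion injury of 1 kidney, and live cells positive for CD45, T cell receptor β chain and CD4 were sorted from digested kidneys for single-cell 3′ RNA sequencing. The 3 knockout libraries came from Il1rl1fl/fl Foxp3YFP-Cre mice and the 2 control libraries from Il1rl1fl/fl mice, so both groups carried the floxed allele. In the knockout mice the Foxp3 gene, which is active mainly in regulatory T cells, drove Cre, and loss of Il1rl1 in those cells and presence of the Foxp3YFP-Cre allele cannot be told apart. The labels do not say whether each library is a separate animal or a pool, so the p-values refer to libraries and not to animals.

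CD8 T cells recognise peptides on MHC class I through their T cell receptor, with the CD8 αβ dimer, made from Cd8a and Cd8b1, as co-receptor. They kill target cells with perforin and granzymes and release chemokines and interferon-γ. CD4 T cells use CD4 with MHC class II instead. The transcription factor Runx3 represses Cd4 in CD8 cells and ThPOK, encoded by Zbtb7b, holds cells in the CD4 lineage.

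The libraries held 41153835, 60421178 and 31104939 UMIs (knockout 1 to 3) and 152275841 and 46383793 UMIs (control 1 and 2), so control 1 was read most deeply. The gate cells of each library summed to 705168 to 1531813 UMIs in the knockout libraries and to 8630587 and 751643 UMIs in the controls. Libraries shared 157 barcodes among retained cells and 0 among gate cells. Markers of other cells were present at low level in all libraries. B cells, taken as cells with at least 2 Cd79a UMIs and a Ms4a1 UMI, had a Cd4 UMI in 75.0% to 87.5% of cells in the knockout libraries and in 77.3% and 65.3% in the controls, at median depths of 7362 to 21834 UMIs. A Cd3e UMI was found in 54.2% to 87.5% of these B cells in the knockout libraries and in 80.4% and 67.4% in the controls. Macrophages, taken by their C1qa and C1qb counts, had a Cd3e UMI in 89.6% to 94.9% (knockout) and in 89.6% and 79.3% (controls). Detection of Cd4 or Cd3e in a single cell therefore did not separate T cells from other cells here. The gate, the CD8-free T cells and the Cd3e-positive cells can thus include other cells. Levels in counts scaled to a library of 1e6 UMIs (CPM) are used for the comparisons between classes.

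The values that chose the cells were low in absolute terms. Gate cells had a median of 6, 4 and 4 Cd3e UMIs in the knockout libraries and 13 and 4 in the controls. The median was 3.5, 2 and 2 Cd8a UMIs in knockout gate cells and 8 and 2 in control gate cells. For Cd8b1 it was 9, 4 and 4 UMIs in knockout gate cells and 15 and 4 in control gate cells. Control 1, the deepest library, stood above the other 4 in all 3 genes. Of Cd3e-positive cells 2.24%, 2.24% and 1.71% had a Cd8a UMI in the knockout libraries and 5.04% and 1.49% in the controls. Among B cells 0% to 3.13% had a Cd8a UMI and 2.11% to 8.33% a Cd8b1 UMI, and 5 of them fell in the gate (1, 0 and 0 in knockout libraries, 4 and 0 in controls). Macrophages, taken by the same C1qa and C1qb counts, made up 8 of 68, 15 of 155 and 8 of 59 gate cells in the knockout libraries. In the controls they made up 19 of 313 and 6 of 81 gate cells.

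The edge of the gate was uneven. Of the 676 cells, 508 had at least 2 UMIs of both Cd8a and Cd8b1, and 168 (24.9%) had a single UMI of one of them. Summed over all libraries, where control 1 gave most of the UMIs, the 508 cells had 51.4 CPM for Eomes, 84.5 CPM for Klrd1 and 159 CPM for Cd4. The 168 cells had 25.4 CPM for Eomes, 69.5 CPM for Klrd1 and 219 CPM for Cd4. This order did not hold in each library. Eomes was higher at the edge in knockout 1 (65.3 CPM in cells with a single UMI and 36.4 CPM in the others) and in knockout 3 (24.0 and 15.1 CPM). Klrd1 was higher there in control 1 (96.1 and 79.2 CPM), and Cd4 was lower there in knockout 1 (123 and 173 CPM). Just outside the gate, 1318 cells had Cd8b1 but no Cd8a UMI, with 5.34 CPM for Eomes, 12.3 CPM for Klrd1 and 342 CPM for Cd4. Another 143 cells had Cd8a but no Cd8b1 UMI, with 14.8 CPM for Eomes and 47.8 CPM for Klrd1. A lack of Cd3e kept 32 cells out and Flt3 kept 11 out.

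Checked against the label, most gate cells carried transcripts of both co-receptors. A Cd4 UMI was found in 459 of the 676 cells (67.9%), which came to 47, 100 and 44 cells in the knockout libraries and 222 and 46 in the controls, and 217 cells (32.1%) had none. Cells with a Cd4 UMI were also the larger ones. Their median UMI total was 1.63 to 2.59 times that of the CD8-free T cells of the same library, a mean of 2.01 ± 0.352 times (SD, n = 5 libraries). In gate cells without a Cd4 UMI the ratio was 0.992 to 1.30, a mean of 1.15 ± 0.128 (SD, n = 5 libraries). The Cd8a level was 249 ± 54.2 CPM in gate cells with a Cd4 UMI and 513 ± 66.8 CPM in those without (SD, n = 5 libraries). Cd8b1 likewise stood at 436 ± 68.7 CPM with and 869 ± 91.1 CPM without a Cd4 UMI (SD, n = 5 libraries). Since having a Cd4 UMI is likelier in a deeply read cell, these values describe the split and are not tested.

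**Figure D1:**
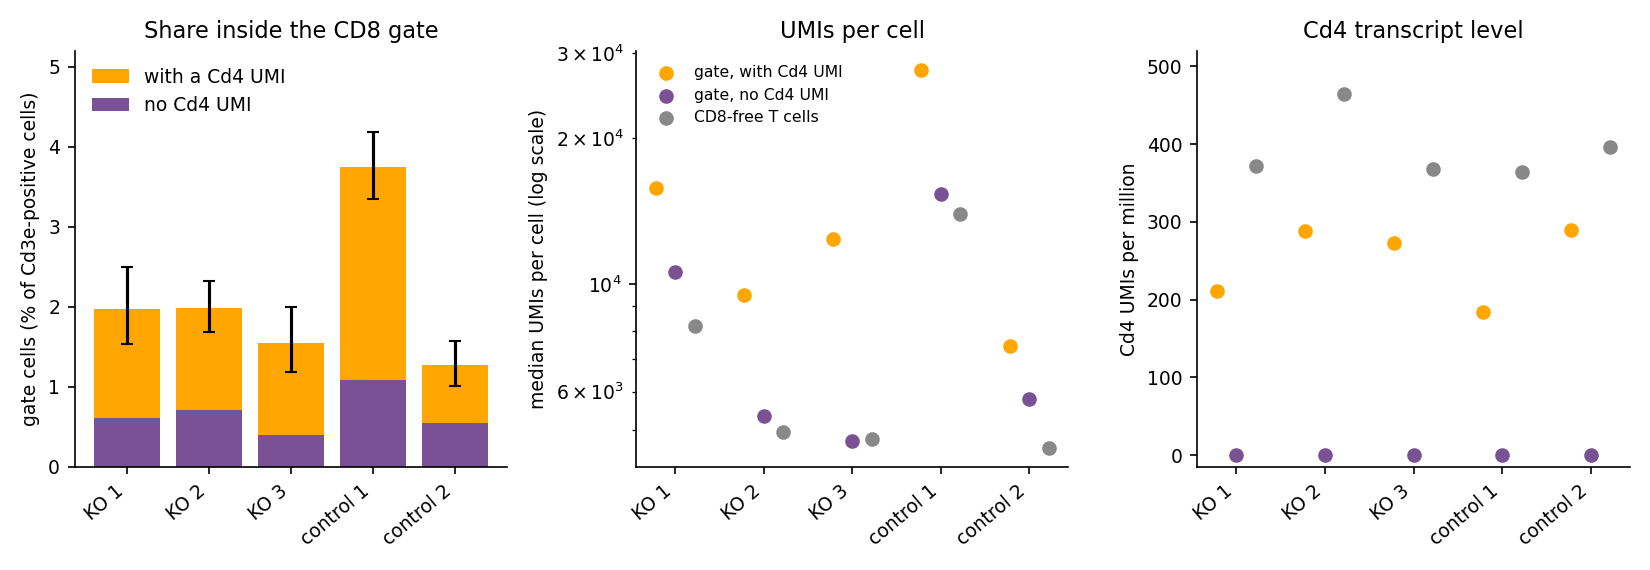
Make-up of the CD8 gate by library (KO, knockout). Left, gate cells as a percentage of Cd3e-positive cells, split by a Cd4 UMI, with exact 95% binomial intervals for the whole bar; middle, median UMIs per cell on a log scale; right, Cd4 CPM of the summed cells. Gate cells with a Cd4 UMI lie above the CD8-free T cells in UMIs per cell and below them in Cd4 CPM in each library.

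Receptor segments and doublet scores were counted in the same cells, as a description. Among cells with any Trbv UMI, 2 or more different Trbv segments, the variable parts of the T cell receptor β chain, were found in 159 of 341 gate cells with a Cd4 UMI (46.6%) and in 17 of 109 without (15.6%). CD8-free T cells drawn to match their UMI totals had 36.2% (366 of 1011) and 20.5% (76 of 371), and all CD8-free T cells 19.6%. By library, gate cells with a Cd4 UMI had 45.2%, 41.2% and 39.3% in the knockout libraries and 52.9% and 21.7% in the controls. Their matched cells had 25.0%, 28.4% and 31.9% in the knockout libraries and 43.7% and 22.6% in the controls. At 2000 UMIs per cell the values were 8.33% (8 of 96) with a Cd4 UMI against 7.46% (20 of 268) in matched cells, and 5.13% (2 of 39) without against 3.25% (4 of 123). Median Scrublet doublet scores per library were 0.0862 to 0.129 in gate cells with a Cd4 UMI and 0.0456 to 0.0648 in those without, against 0.0539 to 0.0699 in CD8-free T cells. The share of pairs of cells captured together among the gate cells was not tested, so gate cells without a Cd4 UMI are given separately below where a described result turns on them.

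The CD8 gate cells carried the transcript profile of cytotoxic cells. Of 12531 genes tested with edgeR's quasi-likelihood test on UMIs summed per library and class, 286 (2.28%) were higher and 313 (2.5%) were lower in gate cells than in CD8-free T cells at an adjusted p under 0.05. The genes of the gate were left out of this test. Among the cytotoxic granule and killing genes, 9 of 13 were higher and 0 lower, with a median log2 difference of 1.22 against −0.01 over all genes. Those that rose were Gzma, Gzmb, Gzmk, Gzmm, Prf1, Nkg7, Ctsw, Cst7 and Fasl. Prf1, which encodes the pore protein perforin, had 53.4, 76.4 and 25.9 CPM in knockout gate cells and 45.1 and 75.9 CPM in control gate cells. In CD8-free T cells of the same libraries Prf1 had 9.88, 9.07 and 7.13 CPM (knockout) and 7.66 and 11.3 CPM (control). The 2 classes did not overlap, with a log2 difference of 2.61 ± 0.14 (SE; edgeR adjusted p = 1.84e-09).

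Gzmb, the granzyme that triggers death of the target cell, had 92.6, 118 and 138 CPM in knockout gate cells and 135 and 132 CPM in control gate cells. It had 38.5, 20.1 and 55.4 CPM in knockout CD8-free T cells and 17.7 and 38.2 CPM in control ones, again without overlap (log2 difference 2.11 ± 0.19, SE; edgeR adjusted p = 1.19e-06). Gzmk, a granzyme of memory-like CD8 cells, was higher by 1.58 ± 0.14 on the log2 scale (SE). Nkg7, a granule membrane protein, averaged 808 ± 122 CPM in gate cells and 349 ± 62.5 CPM in CD8-free T cells (SD, n = 5 libraries; log2 difference 1.22). The chemokine Ccl5 averaged 1926 ± 388 CPM in gate cells and 632 ± 63.2 CPM in CD8-free T cells (SD, n = 5 libraries; log2 difference 1.59).

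The regions just before the starts of Gzmb, Prf1 and Nkg7, cytotoxic genes that were higher in gate cells, are shown. They were chosen because the RUNX core motif occurs in them. RUNX proteins such as Runx3 bind the letters TGTGGT. The sequences are RefSeq's (GRCm38.p6), 250 bases up to each start, read along the gene's strand, with TGTGGT or its reverse complement ACCACA in capitals.
Gzmb, chr14:56262335-56262584, minus strand: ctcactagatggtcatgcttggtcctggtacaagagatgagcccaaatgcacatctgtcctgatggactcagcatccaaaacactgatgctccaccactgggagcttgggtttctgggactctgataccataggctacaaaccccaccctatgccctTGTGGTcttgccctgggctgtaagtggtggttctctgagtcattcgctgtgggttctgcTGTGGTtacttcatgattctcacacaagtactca
Prf1, chr10:61297586-61297835, plus strand: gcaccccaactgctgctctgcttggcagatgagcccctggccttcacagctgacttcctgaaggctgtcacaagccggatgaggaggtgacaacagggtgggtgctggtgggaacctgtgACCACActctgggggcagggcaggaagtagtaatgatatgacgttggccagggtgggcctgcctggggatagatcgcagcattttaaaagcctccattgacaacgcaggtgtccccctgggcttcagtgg
Nkg7, chr7:43436888-43437137, plus strand: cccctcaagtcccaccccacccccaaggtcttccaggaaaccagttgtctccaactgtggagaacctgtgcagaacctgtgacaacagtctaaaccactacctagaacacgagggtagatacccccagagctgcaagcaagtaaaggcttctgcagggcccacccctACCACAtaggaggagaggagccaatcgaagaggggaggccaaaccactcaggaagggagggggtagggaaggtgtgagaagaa
Gzmb had 2 copies in the forward direction, and Prf1 and Nkg7 had 1 each in reverse. Of the 15 named genes higher in gate cells, 11 had a promoter in the table and 6 of those held the motif (Nkg7, Prf1, Ly6c2, Cd160, Cst7 and Gzmb). Eomes, Gzmk, Atp8b4, Samd3 and Slamf7 did not hold it, nor did Cd8a. Of the 4 named lower genes, 2 had a promoter in the table and 0 held it. The motif was present for 15.9% of all 27025 genes. A match of letters describes the sequence and does not show binding, and a part of Runx3 in these differences was not tested.

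**Figure D2:**
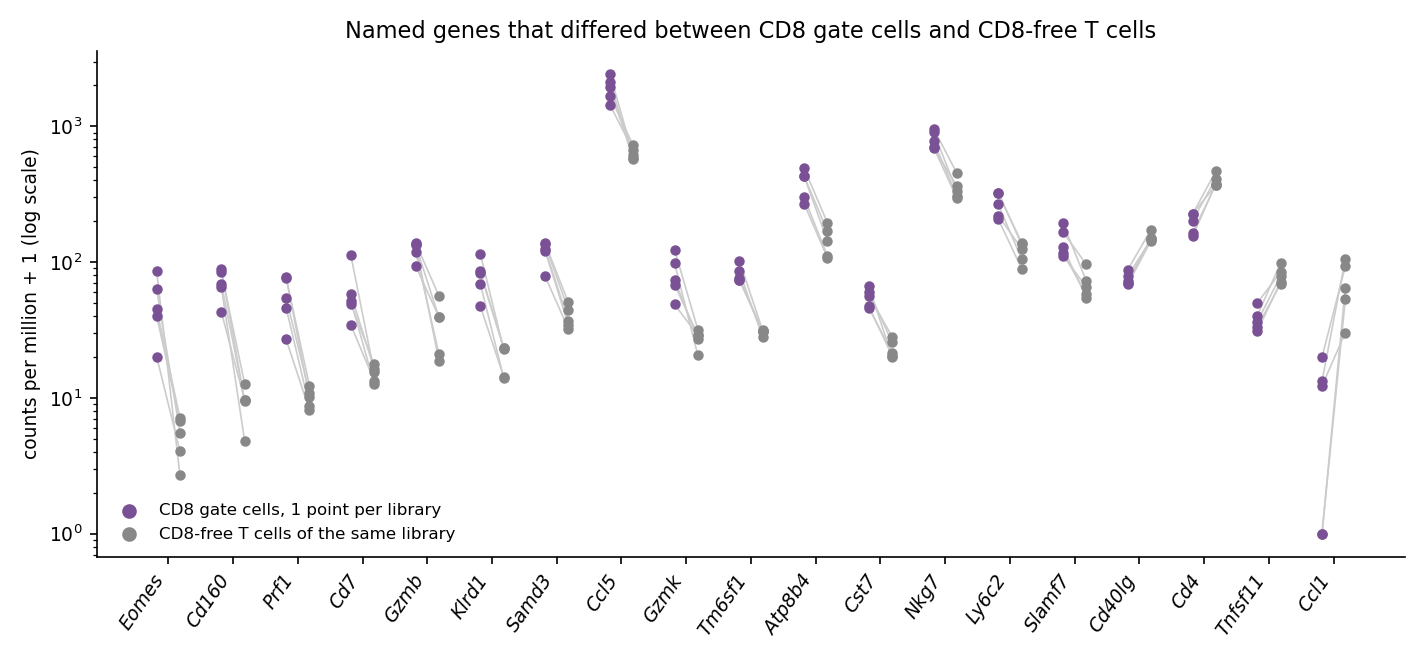
CPM + 1 (log scale) of the named genes that differed between CD8 gate cells and CD8-free T cells. Each point is 1 library and lines join the 2 classes of a library, and every line falls from left to right for the genes from Eomes to Slamf7 and rises for Cd40lg, Cd4, Tnfsf11 and Ccl1.

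The lineage genes moved in opposite directions in the 2 lists. Some genes belong to more than 1 list and are counted in each. In the CD8 lineage list 9 of 11 genes were higher and 0 lower (median log2 difference 1.09). Runx3 averaged 249.9 ± 19.7 CPM in gate cells and 165 ± 14.9 CPM in CD8-free T cells (SD, n = 5 libraries; log2 difference 0.61). Eomes, a transcription factor of effector and memory CD8 cells, had 39.2, 62.7 and 19.1 CPM in knockout gate cells and 44.0 and 85.1 CPM in control gate cells. In CD8-free T cells Eomes had 5.75, 4.55 and 3.04 CPM (knockout) and 6.12 and 1.69 CPM (control). Its log2 difference was 3.50 ± 0.31 (SE; edgeR adjusted p = 8.53e-07). Crtam, an adhesion receptor of activated CD8 and NK cells, was higher by 2.46 and the surface protein Cd7 by 2.16 on the log2 scale. In gate cells without a Cd4 UMI the list counted 7 higher of 11, and the log2 difference was 4.07 for Eomes, 3.05 for Cd7 and 0.79 for Runx3.

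In the CD4 lineage list 0 of 10 genes were higher and 7 were lower (median log2 difference −0.72). These were Cd4, Zbtb7b, Cd40lg, Izumo1r, Icos, Cd5 and Tnfsf8. Cd4 had 163, 224 and 226 CPM in knockout gate cells and 154 and 200.3 CPM in control gate cells, against 371, 466 and 366 CPM in knockout and 375 and 411 CPM in control CD8-free T cells. Gate cells thus had a lower Cd4 level in each library although most had a Cd4 UMI (log2 difference −1.08 ± 0.07, SE; edgeR adjusted p = 9.97e-09). Cd40lg, the CD40 ligand by which helper T cells instruct B cells, averaged 74.6 ± 7.88 CPM in gate cells and 151 ± 12.1 CPM in CD8-free T cells (SD, n = 5 libraries; log2 difference −1.02). In gate cells without a Cd4 UMI its log2 difference was −2.59 and that of Zbtb7b was −1.37, against −0.75 for Zbtb7b in all gate cells. Tnfsf11, the cytokine RANKL, and Ccl1, a chemokine, were also lower, with log2 differences of −1.11 and −2.26. Ccl1 was at 0 CPM in the gate cells of knockout 1 and control 2.

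Transcripts that lie beside Cd8a and Cd8b1 differed more than the named genes. These genes fall outside the naming rule and were chosen after their values were seen. In GENCODE M21 (mm10) Cd8b1 spans chr6:71322788-71337494 and Cd8a chr6:71373427-71379173, both on the plus strand, with 35932 bases between them. Gm44174, an unnamed non-coding gene at chr6:71353035-71373284 on the plus strand, averaged 232 ± 71.2 CPM in gate cells and 0.619 ± 0.420 CPM in CD8-free T cells (SD, n = 5 libraries; log2 difference 8.38 ± 0.15, SE; edgeR adjusted p = 1.99e-16). Its annotated end lies 142 bases before the start of Cd8a on the same strand, so reads of the 2 genes near that boundary cannot be told apart. Gm44175, at chr6:71354351-71360829 on the minus strand inside the span of Gm44174, averaged 6.73 ± 2.70 CPM against 0.0772 ± 0.0747 CPM.

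Smyd1, a histone methyltransferase known from muscle and from cytotoxic T cells, reads away from Cd8b1 on the minus strand at chr6:71213940-71322233, and its start lies 554 bases from that of Cd8b1. It averaged 28.5 ± 7.18 CPM in gate cells and 0.540 ± 0.191 CPM in CD8-free T cells (SD, n = 5 libraries; log2 difference 5.67 ± 0.27, SE; edgeR adjusted p = 3.83e-10). The next genes out did not pass. Krcc1, inside the span of Smyd1 on the other strand, averaged 103 CPM in gate cells and 107 CPM in CD8-free T cells (edgeR adjusted p = 0.904). Rmnd5a, beyond Cd8a, averaged 95.3 CPM in gate cells and 88.8 CPM in CD8-free T cells (edgeR adjusted p = 0.505). Cd8a and Cd8b1 chose the cells, so differences in genes transcribed from the same region are not independent of the rule.

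**Figure D3:**
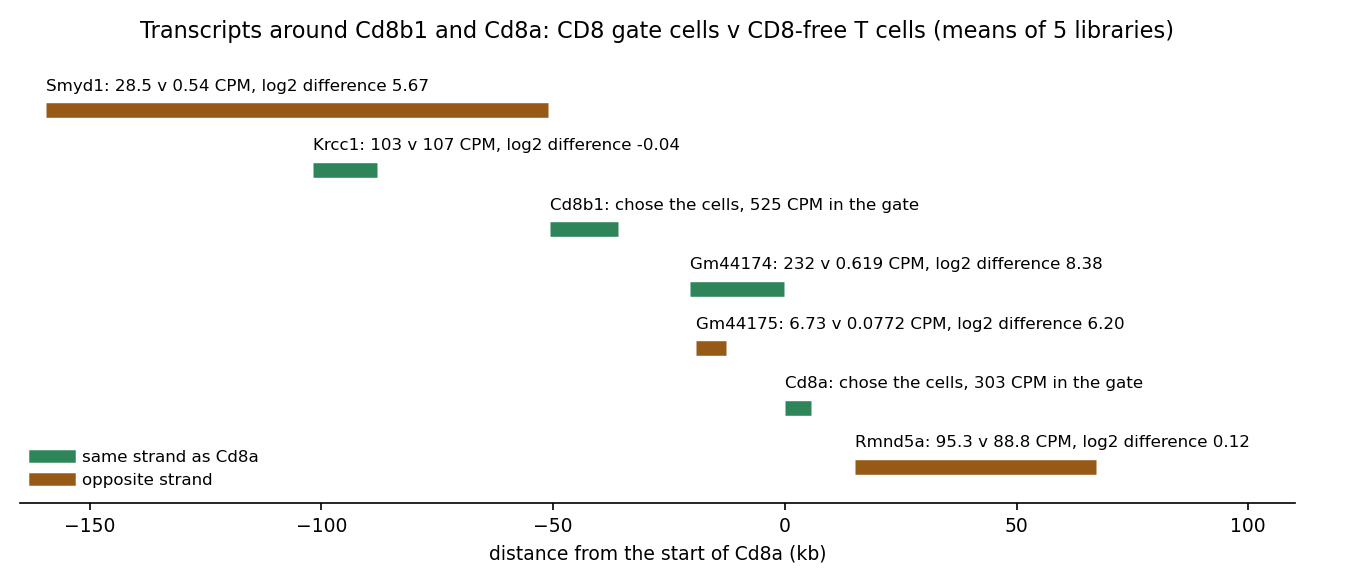
Genes around Cd8b1 and Cd8a, drawn to scale by distance from the start of Cd8a in kilobases and coloured by strand, with the mean CPM in CD8 gate cells v CD8-free T cells over 5 libraries. Smyd1, Gm44174 and Gm44175 differ by 5.67 or more on the log2 scale, while Krcc1 and Rmnd5a stay within 0.12.

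Receptors shared with natural killer cells were higher in the gate cells. Of the killer lectin receptor genes 5 of 11 were higher and 0 lower, namely Klrc1, Klrc2, Klrd1, Klre1 and Klrk1. Klrd1, which encodes CD94, had 114, 84.3 and 46.3 CPM in knockout gate cells and 81.7 and 68.1 CPM in control gate cells, against 21.7, 22.4 and 13.3 CPM in knockout and 22.4 and 13.1 CPM in control CD8-free T cells. The classes did not overlap (log2 difference 2.05 ± 0.11, SE; edgeR adjusted p = 9.21e-10). Cd160, a receptor for HVEM and MHC class I, averaged 69.1 ± 18.3 CPM in gate cells and 8.21 ± 2.81 CPM in CD8-free T cells (SD, n = 5 libraries; log2 difference 3.13). Of the NK cell markers 3 of 9 tested were higher, namely Klre1, Eomes and Gzma, and 0 lower. Ncr1, which defines NK cells, was at 0 in the gate cells of the 3 knockout libraries, and this says nothing of the control gate cells.

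The chemokine and cytokine list had 5 of 11 genes higher, and its median log2 difference was −0.12. The 5 were Ccl3, Ccl4, Ccl5, Xcl1 and Tnfsf10. In gate cells without a Cd4 UMI 3 of 11 were higher, and Ccl3 and Xcl1 did not pass. Ccl3 also did not pass with 2 or more UMIs of Cd8a and Cd8b1, and Xcl1 did not by DESeq2. Ifng, the interferon-γ gene, averaged 42.6 CPM in gate cells and 53.5 CPM in CD8-free T cells and did not pass (edgeR adjusted p = 0.732). Xcl1 rested in part on control 2, whose gate cells had 310.3 CPM against 51.6 to 99.5 CPM in the gate cells of the other 4 libraries.

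Genes of tissue-resident T cells were partly higher, with 5 of 14 higher and 1 lower. Itgae, the CD103 integrin chain that binds E-cadherin, had 17.8, 26.8 and 31.3 CPM in knockout gate cells and 56.3 and 23.6 CPM in control gate cells. In CD8-free T cells Itgae had 8.74 to 11.7 CPM in the knockout libraries and 10.5 and 12.2 CPM in the controls, below all gate values. The other genes that rose were Itga1, Cxcr6, Cdh1 and Xcl1, and Bhlhe40 fell. In gate cells without a Cd4 UMI 4 residency genes were higher and 2 lower, and Xcl1 and Bhlhe40 did not pass. Of 10 chronic stimulation genes 4 were higher, the inhibitory receptors Lag3, Havcr2 and Cd160 and the ectoenzyme Entpd1, and Ctla4 was lower. In gate cells without a Cd4 UMI only 2 of the 10 were higher, and Havcr2 and Entpd1 did not pass. Havcr2 also did not pass against CD8-free T cells matched on UMI totals. Pdcd1, which encodes PD-1, averaged 57.9 CPM in gate cells and 46.0 CPM in CD8-free T cells and did not pass (edgeR adjusted p = 0.315).

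Counts of several other lists depended on which cells were compared. Of 14 naive and recirculation genes 8 were lower, among them Ccr7, Tcf7 and Il7r, but 0 passed against CD8-free T cells matched on UMI totals. Of 17 cell cycle genes 0 passed against all CD8-free T cells and 10 were lower against the matched ones, which are the CD8-free T cells of higher UMI totals. Mki67, a marker of dividing cells, had a log2 difference of −0.36 (edgeR adjusted p = 0.212) against all and −0.87 (edgeR adjusted p = 0.00079) against the matched cells. Of 10 macrophage markers 3 were higher, C1qa, C1qb and C1qc, by 0.31 to 0.46 on the log2 scale. In gate cells without a Cd4 UMI 0 macrophage markers were higher and 8 of 10 were lower. Monocyte markers, of 7 tested, went from 1 higher and 3 lower to 0 higher and 6 lower in those cells. T cell receptor signalling genes, of 16 tested, went from 1 higher and 4 lower to 7 higher and 2 lower against the matched cells. Type I interferon genes went from 3 lower to 0 lower against the matched cells. Of the dendritic cell markers Itgax was higher, which T cells also express, and Xcr1 lower, of 8 tested.

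Regulatory and unconventional T cell genes showed few calls. In the regulatory T cell list 1 of 10 genes was higher and 2 were lower. Foxp3 averaged 39.5 ± 13.6 CPM in gate cells and 28.6 ± 4.15 CPM in CD8-free T cells (SD, n = 5 libraries; log2 difference 0.41, edgeR adjusted p = 0.0472). It passed in only 4 of 15 alternative settings and was −0.23 in gate cells without a Cd4 UMI. Of 10 unconventional T cell genes, Tcrg-C2, a constant segment of the γδ receptor, was higher and Zbtb16, the PLZF factor of innate-like T cells, lower.

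**Figure D4:**
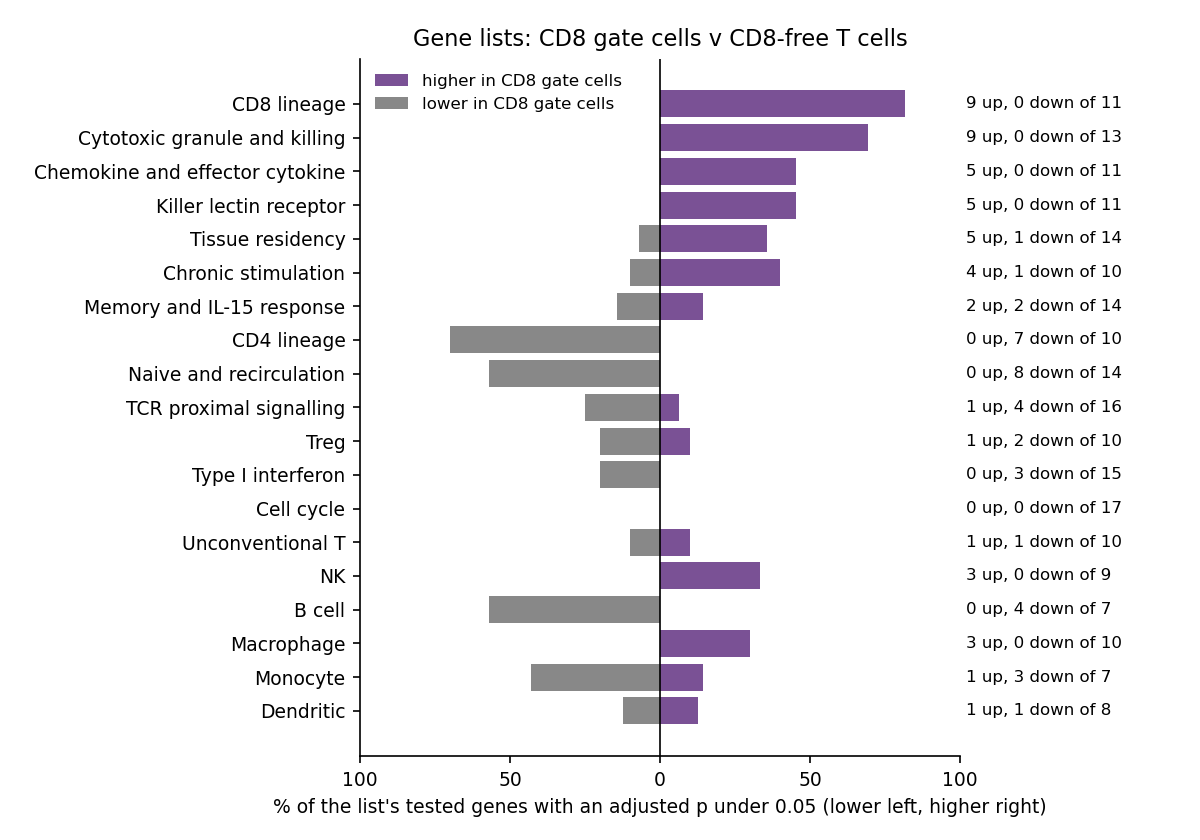
Share of each gene list's tested genes, in percent, that were higher (right) or lower (left) in CD8 gate cells than in CD8-free T cells at an adjusted p under 0.05, with the counts at the right. The CD8 lineage and cytotoxic lists lie to the right and the CD4 lineage and naive lists to the left.

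Within the gate, states were mixed. At 2000 UMIs per cell, to which 671 of the 676 cells could be thinned, Nkg7 was detected in 72.6% of gate cells and 37.6% of CD8-free T cells, Eomes in 8.79% and 0.631%, and Gzmk in 15.5% and 4.51%. Itgae was detected in 7.60% of gate cells and 1.59% of CD8-free T cells, and Cd4 in 26.4% and 54.4%. Of the 671 cells, 143 (21.3%) had a UMI of Gzmk or Eomes, 168 (25.0%) one of the residency integrins Itgae or Itga1, and 28 had both. Mki67 or Top2a was found in 191 (28.5%) and a killer lectin receptor of Klrd1, Klrc1 and Klrk1 in 199 (29.7%). The libraries ranged widely, from 8.82% to 34.6% for Gzmk or Eomes and from 12.8% to 45.8% for Mki67 or Top2a.

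Gate cells were also split by whether a Cd4 UMI was left after thinning to 2000 UMIs, which is not the split above. With a Cd4 UMI left there were 17, 53 and 19 knockout and 66 and 22 control cells. Without there were 51, 100 and 40 knockout and 247 and 56 control cells. Only 213 thinned gate cells lacked Cd4 at full depth, so the cells without here include cells that had a Cd4 UMI. Few calls therefore do not show that the groups described above are alike. Of 2199 genes tested, 1 (0.0455%) was higher with a Cd4 UMI and 0 (0%) were lower. The gene was Ighm, the immunoglobulin heavy chain of B cells, named outside the rule. It had 58.2, 112 and 211 CPM in knockout and 2279 and 212 CPM in control cells with a Cd4 UMI, against 116, 152 and 203 CPM in knockout and 156 and 154 CPM in control cells without. Control 1 alone stood apart, and without it the 1 gene that passed was Inpp4b (log2 difference 0.53, edgeR adjusted p = 0.0380). Without thinning, where the cells were split by their full Cd4 counts, 76 genes were higher and 37 lower.

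The share of gate cells was compared between genotypes. They made up 1.98% (exact 95% binomial interval 1.54% to 2.50%), 1.99% (1.69% to 2.32%) and 1.55% (1.18% to 2.00%) of Cd3e-positive cells in the knockout libraries. In the controls they made up 3.75% (3.35% to 4.18%) and 1.27% (1.01% to 1.58%). The knockout values lay between the 2 control values. Means were 1.84% ± 0.248 in knockout (SD, n = 3) and 2.51% ± 1.75 in control libraries (SD, n = 2), a difference of −0.671 percentage points (two-sided exact permutation p = 0.8, where 0.2 is the smallest the design allows). Without control 1 the difference was 0.568. Intervals cover counting error only, and control 1 also had the most UMIs per cell. After thinning all cells to 2000 UMIs the shares were 0.743% ± 0.131 in knockout and 1.11% ± 0.659 in control libraries (SD; exact permutation p = 0.6).

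For genotype, the targeted gene is given first. Il1rl1 had 46.1, 24.8 and 16.8 CPM in knockout gate cells and 15.2 and 24.1 CPM in control gate cells, and the groups overlapped (log2 difference 0.76 ± 0.38, SE; edgeR adjusted p = 0.9995). In CD8-free T cells Il1rl1 averaged 43.2 ± 19.3 CPM in knockout libraries (SD, n = 3) and 14.8 ± 1.15 CPM in control libraries (SD, n = 2). Which exons Cre removes is not given in the sources used here, so reads at the 3′ end need not report the deletion, and this does not check the labels.

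Few genes differed by genotype within the gate cells. Of 9010 genes, 2 (0.0222%) were higher and 0 (0%) lower in knockout than in control gate cells by edgeR, with 225 higher and 140 lower at an unadjusted p under 0.05. Mgl2, a lectin of macrophages and dendritic cells, had 35.3, 57.4 and 54.5 CPM in knockout and 7.99 and 13.4 CPM in control gate cells (log2 difference 2.43 ± 0.32, SE; edgeR adjusted p = 0.0449). Lilr4b, an immunoglobulin-like receptor first known from myeloid cells, had 63.3, 51.5 and 46.1 CPM in knockout and 14.9 and 20.1 CPM in control gate cells (log2 difference 1.74 ± 0.25, SE; edgeR adjusted p = 0.0478). Lilr4b has a close paralogue in Lilrb4a, so its counts are uncertain where reads could be split. In gate cells without a Cd4 UMI neither gene had enough counts to be tested, and 0 of 4769 genes passed. Both calls were lost without control 1, which leaves a single control library whose spread is assumed to be that of the knockouts, without knockout 1 and without knockout 2. The log2 differences were then 1.86, 2.62 and 2.26 for Mgl2 (edgeR adjusted p = 0.267, 0.0501 and 0.137) and 1.42, 1.60 and 1.77 for Lilr4b (edgeR adjusted p = 0.460, 0.240 and 0.137).

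Transcripts of MHC class II presentation had higher values in the knockout gate cells, and whether they passed depended on the setting. By edgeR over all gate cells they did not. Cd74, the invariant chain, had 1468, 984 and 1002 CPM in knockout and 506 and 319 CPM in control gate cells (log2 difference 1.46 ± 0.23, SE; edgeR adjusted p = 0.0787). H2-Ab1 had 508, 289 and 321 CPM in knockout and 164 and 113 CPM in control gate cells (edgeR adjusted p = 0.164). By DESeq2 Cd74 and H2-Ab1 passed (adjusted p = 0.0387 and 0.000104), and by edgeR Cd74, H2-Ab1, H2-Aa and H2-Eb1 passed without the filter on low counts. With 1 library left out, Cd74 passed by edgeR without control 1 (log2 difference 1.85, adjusted p = 0.00436), without control 2 (1.19, adjusted p = 0.0123) and without knockout 3 (1.55, adjusted p = 0.0447). It did not without knockout 1 or 2 (1.25 and 1.57, edgeR adjusted p = 0.240 and 0.137). H2-Ab1 passed without control 2 (adjusted p = 0.0317), and H2-Eb1 without control 2 (adjusted p = 0.0375) and without knockout 3 (adjusted p = 0.0447). Without either control the remaining one is a single library, as above. Every knockout library was above every control library in both, as in 7.97% of all genes tested. A further 8.01% were below in every knockout library, so 16% did not overlap. In gate cells without a Cd4 UMI the log2 difference was 1.69 ± 0.80 for Cd74, 2.03 ± 0.81 for H2-Aa and 2.25 ± 0.93 for H2-Eb1 (SE; edgeR adjusted p = 0.9999 for each). After thinning it was 1.07 ± 0.24 for Cd74 (SE; edgeR adjusted p = 0.201). With gate cells that had a UMI of any of 10 non-T markers left out, it was −1.04 ± 0.53 for Cd74 and 1.57 ± 0.49 for Lilr4b (SE; edgeR adjusted p = 0.9997 for both). The summed level of the dendritic cell markers was 2036, 1321 and 1377 CPM in knockout and 694 and 438 CPM in control gate cells, nearly all of it from Cd74 and H2-Ab1 themselves. The 7 dendritic markers other than these summed to 48.2, 47.0 and 34.0 CPM in knockout and 33.7 and 9.31 CPM in control gate cells. Of all 9, 5 or 6 were detected in knockout libraries and 8 and 4 in controls. Siglech was at 0 in the gate cells of all 5 libraries, Cd209a in 4 and Xcr1 in 3. Macrophage markers summed to 981, 888 and 1351 CPM in knockout and 331 and 1195 CPM in control gate cells, with 10 of 10 detected in each library. The part of these cells in the differences was not tested.

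By edgeR over all gate cells, no gene list had a member that passed between genotypes. Under other settings, besides the class II genes, Xcl1 (−2.15) and Hsph1, a heat shock protein gene (−1.87), passed without control 1 and Il18r1, an IL-18 receptor chain gene (1.44), without knockout 3. With the replicate number as a term (a replicate block), Il18r1 (1.365) and Capg, a gene of the regulatory T cell list (0.919), passed as well. Members that passed without control 2 or without the filter on low counts are not listed here. The cytotoxic list had a median log2 difference of 0.01 over 13 genes, with 8 positive, and the CD8 lineage list −0.10 over 11, with 3 positive, against 0.00 over all genes. Nkg7 had 788, 961 and 711 CPM in knockout and 704 and 930 CPM in control gate cells. Gzmb had 94.0, 118 and 141 CPM in knockout gate cells and 136 and 135 CPM in control ones, a log2 difference of −0.22, and Eomes differed by −0.44 (edgeR adjusted p = 0.9995 for both). All 5 tested genes of the Th17 and Tc17 list had positive differences, from 0.44 for Maf to 2.77 for Il1r1, and none passed. This was not particular to that list. All tested genes were also positive in the killer lectin receptor (6), macrophage (9), monocyte (5), dendritic (4) and Th2 and Tc2 (3) lists. The 2 tested genes of the B cell list were negative. Among genes that stood lower without passing were Dapl1, a gene of quiescent T cells, with 24.4, 11.1 and 13.97 CPM in knockout and 50.4 and 33.5 CPM in control gate cells, and the interferon-induced Ifit3, with 36.2, 33.9 and 33.5 CPM in knockout and 74.8 and 49.6 CPM in control gate cells. Immunoglobulin transcripts were high in control 1, where the B cell list summed to 1594 CPM in gate cells, against 122 to 211 CPM in the knockout libraries and 192 CPM in control 2.

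**Figure D5:**
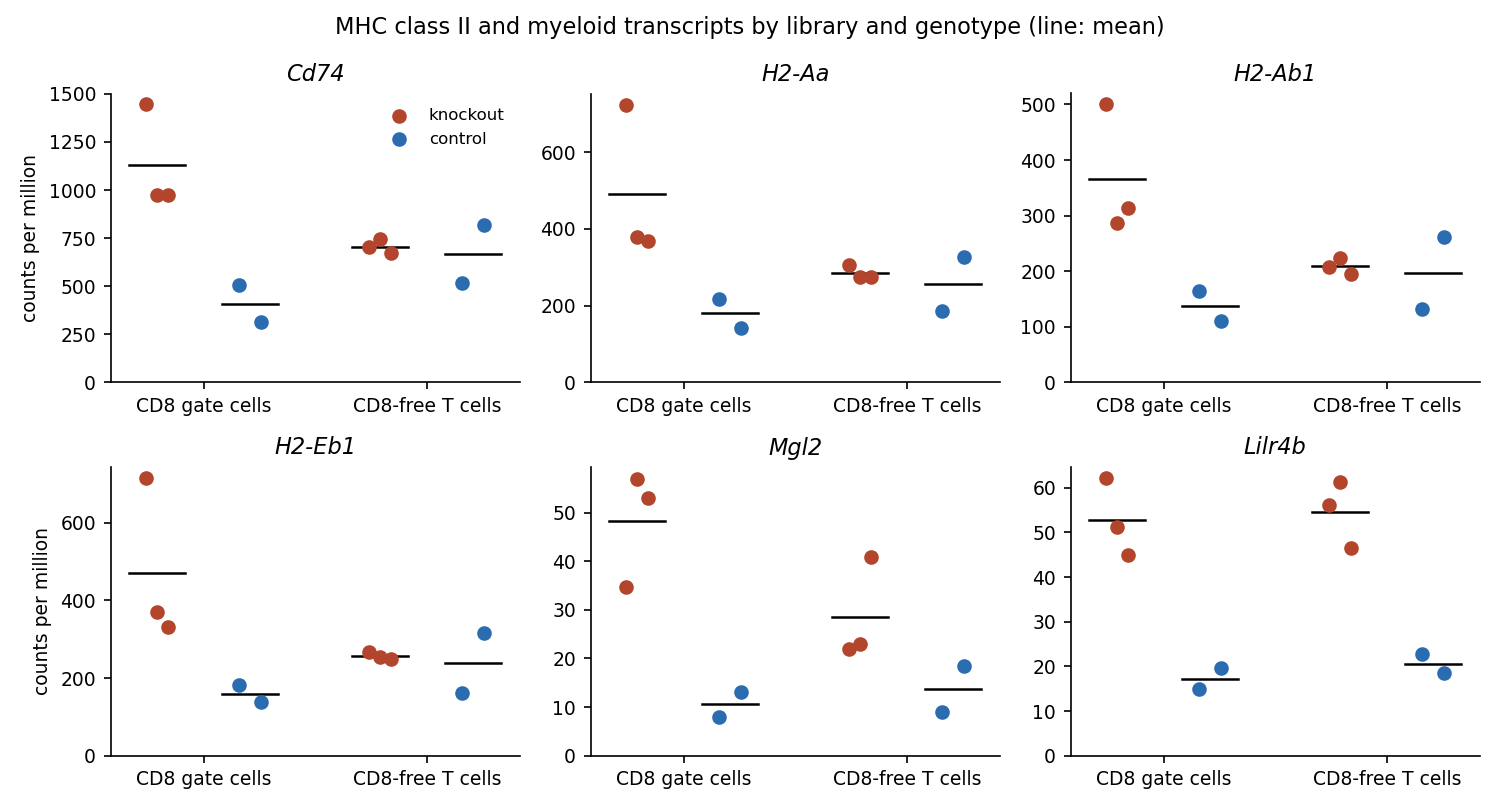
CPM of 4 MHC class II genes and of Mgl2 and Lilr4b by library, knockout (red) left of control (blue), in CD8 gate cells and in CD8-free T cells, with a line at each mean. The knockout libraries lie above the controls for all 6 genes in gate cells, and in CD8-free T cells for Mgl2 and Lilr4b but not for the 4 class II genes.

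Shares of gate cells with a UMI of each of 50 state genes were set side by side at 2000 UMIs. For 8 of the 50 genes, or 16%, knockout and control libraries had no common range, 4 higher and 4 lower in knockout. On summed counts the libraries of 16% of all genes did not overlap either, so the count is no result about these genes. The smallest two-sided exact permutation p, 0.2, is the limit of the design, and after adjustment 0 genes passed. As values, Klrc1 was detected in 12.01% ± 4.79 of gate cells in knockout (SD, n = 3) and 5.44% ± 0.440 in control libraries (SD, n = 2), and Cxcr6 in 52.6% ± 1.72 in knockout and 47.0% ± 0.559 in control libraries. Tcf7, a factor of naive and stem-like T cells, was detected in 26.0% ± 5.42 in knockout and 38.6% ± 3.48 in control libraries (SD).

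The genotype difference in gate cells was set against that in CD8-free T cells of the same libraries with an interaction term. Of 13617 genes tested by edgeR, the difference was more positive in gate cells for 10 (0.0734%) and more negative for 16 (0.118%). Of the genes named by the rule Cd74 had the smallest p, at 1132 ± 271 CPM in knockout and 408 ± 137 CPM in control gate cells (SD, n = 3 and n = 2), against 706 ± 36.7 CPM in knockout and 665 ± 213 CPM in control CD8-free T cells. The interaction was 1.24 ± 0.15 on the log2 scale (SE; edgeR adjusted p = 1.20e-07). By library, the log2 ratio of gate to CD8-free T cells (CPM + 1) was 0.657 ± 0.339 in knockout and −0.707 ± 0.963 in control libraries (SD, n = 3 and n = 2). The control spread is far wider than the SE, so the SE and p of Cd74 understate the spread between libraries. The 3 genes with a smaller p, outside the rule, were Jchain, Igkc and an immunoglobulin κ variable segment, all of B-lineage cells and all with a negative interaction. By DESeq2 1 gene passed, Rpl12, named outside the rule, and Cd74 did not. Lilr4b averaged 52.8 CPM in knockout and 17.3 CPM in control gate cells, and 54.6 CPM in knockout and 20.6 CPM in control CD8-free T cells (interaction 0.42, edgeR adjusted p = 0.991). All 14 naive and recirculation genes had a positive interaction (median 0.32) and 16 of 17 cell cycle genes a negative one (median −0.42), against −0.01 over all genes, and 0 of either list passed.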

How the data were processed

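The deposited files hold UMI counts per gene and barcode for 5 single-cell 3′ libraries. Per the file headers, the authors ran Cell Ranger 8.0.0. The submitters' processing notes name Cell Ranger 8.0, Seurat 5.1.0 and the mm10 genome. All barcodes were read as deposited, and cells had to have at least 500 genes and under 10% mitochondrial UMIs. Members, gene lists (29), state genes (50) and tests were chosen with earlier results of these data known. Sums of counts per class and library were tested with edgeR 4.0.16 (quasi-likelihood test, TMM, filterByExpr, Benjamini-Hochberg adjustment over all genes tested, threshold 0.05), with library as a term between classes. CPM are scaled by the TMM factors of the comparison they are printed for, except at the edge of the gate, for the co-receptor levels with and without a Cd4 UMI and for marker sums. SE is the log2 difference divided by the root of F. Scrublet (scanpy 1.11.5) called 0 cells by its own threshold, so doublets were not removed. Precision is set by the depth, 705168 to 8630587 UMIs in the gate cells of a library.

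Genes were named by rule. Between genotypes and for the interaction these are, higher and lower, the 12 passing genes of lowest p without overlap between groups (where fewer than 6 passed, failing genes made up 6), and always Il1rl1, Cd4, Gzmk, Gzmb, Ifng, Cxcr6, Ccr7 and Eomes. Between classes they are up to 15 genes each way that pass, change by 1 or more on the log2 scale, average 50 CPM or more in the higher class and go the same way in every library. Receptor segments, unnamed gene models, sex-linked, ribosomal and mitochondrial genes were left out, and list members serve as examples. Some results for single list members are not reported here. Thinning drew 2000 UMIs per cell without replacement. Shares were compared by two-sided exact permutation over 10 arrangements.

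Each test was also run on simulated data, with 50 genes changed at each fold size. At 2-fold they recovered 62% between genotypes, 80% between gate and CD8-free T cells, 76% in the Cd4 split and 40% for the interaction. False calls numbered 4, 4, 8 and 2 in that order. The dispersion, or spread between libraries beyond counting error, was set to 1 value per comparison (0.02189, 0.008287, 0.008423 and 0.01055). Recovery and false calls for genes with a wider spread between libraries, such as Cd74, were not tested. Alternatives were DESeq2 1.42.0, RLE factors, no filter on low counts, a replicate block, each library left out, other cell filters, other gates, other comparison cells and thinning. A further 2 were added after seeing the data, the gate cells without 10 non-T markers and the gate cells without a Cd4 UMI against matched cells. Other tools were R 4.3.3, limma 3.58.1, Python 3.11.15, numpy 2.4.6, pandas 2.3.3, scipy 1.17.1, statsmodels 0.14.6 and matplotlib 3.10.9.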

Additional observations from a re-analysis of the deposited data

Results flagged for a closer look

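For 26 genes, 10 positive and 16 negative, the genotype difference in CD8 gate cells was unlike that in CD8-free T cells of the same libraries, by the interaction term of edgeR at an adjusted p under 0.05. Given here are the 13 of them, 9 positive and 4 negative, that the naming rule takes, which leaves out antigen receptor segments, unnamed gene models and genes whose differences between classes overlapped between knockout and control libraries. Under DESeq2 none of the 13 passed. Of 8 alternative settings, DESeq2 among them, the call was lost in 3 for Gda, Gpr183, Cd9, St8sia6, Il12rb2, Rsad2 and Chst11. It was lost in 2 for Tyrobp and Rad51b and in 1 for each of the 4 MHC class II genes. No direction turned in these settings. Values are mean CPM of 3 knockout and 2 control libraries, and interactions are on the log2 scale.

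Of these 13, the 4 MHC class II genes had the smallest adjusted p. Cd74 had an interaction of 1.24, with 1132 CPM in knockout and 408 in control gate cells, against 706 in knockout and 665 in control CD8-free T cells. H2-Eb1 had 1.12, with 472 in knockout and 160 in control gate cells, against 256 and 238 in knockout and control CD8-free T cells. H2-Aa had 1.00, with 491 and 179 in knockout and control gate cells and 285 and 256 in knockout and control CD8-free T cells. H2-Ab1 had 0.97, with 367 and 137 in knockout and control gate cells and 209 and 197 in knockout and control CD8-free T cells. The 2 controls were unlike each other. Cd74 had 505 CPM in gate cells and 515 CPM in CD8-free T cells of control 1, and 311 and 816 CPM in those of control 2. Between the controls, the log2 ratio of gate to CD8-free T cells had an SD of 0.963 for Cd74 and 0.975 for H2-Eb1. That SD was 1.02 for H2-Aa and 1.10 for H2-Ab1 (n = 2 libraries). The edgeR SE of these interactions was only 0.15 to 0.18, so their adjusted p understates the spread between libraries. With gate cells that had a UMI of any of 10 non-T markers left out, the Cd74 genotype difference in gate cells was −1.04 ± 0.53 (SE), against 1.46 in all gate cells. The dendritic cell markers other than Cd74 and H2-Ab1 summed to 48.2, 47.0 and 34.0 CPM in knockout and 33.7 and 9.31 CPM in control gate cells. The part of non-T cells in these interactions was not tested.

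Other positive interactions were those of Gda, a guanine deaminase (1.64, with 21.3 CPM in knockout and 4.78 in control gate cells, and 17.7 in knockout and 12.4 in control CD8-free T cells), St8sia6, a sialyltransferase (1.14, with 25.3 in knockout and 23.1 in control gate cells, and 22.1 in knockout and 43.2 in control CD8-free T cells), and the tetraspanin Cd9 (1.04, with 32.9, 27.2 and 59.9 in knockout and 22.3 and 20.9 in control gate cells, and means of 32.7 in knockout and 37.2 in control CD8-free T cells). The signalling adaptor Tyrobp had 0.67, with 135 in knockout and 69.1 in control gate cells, and 97.1 in knockout and 83.2 in control CD8-free T cells. The oxysterol receptor Gpr183 had 0.66, with 129 in knockout and 96.2 in control gate cells, and 157 in knockout and 174 in control CD8-free T cells.

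Negative interactions were found for the interferon-induced Rsad2 (−1.22, with 21.8 CPM in knockout and 43.1 in control gate cells, and 30.5 in knockout and 26.7 in control CD8-free T cells) and for the IL-12 receptor gene Il12rb2 (−0.94, with 50.3 in knockout and 50.1 in control gate cells, and 69.4 in knockout and 37.4 in control CD8-free T cells). Rad51b, a DNA repair gene, had −0.89, with 50.7 in knockout and 68.3 in control gate cells, and 66.8 in knockout and 51.1 in control CD8-free T cells. Chst11, a chondroitin sulfotransferase, had −0.76, with 70.6 in knockout and 72.5 in control gate cells, and 43.5 in knockout and 27.6 in control CD8-free T cells.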

How the results depend on the processing

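All 282 alternative values of the genes named between CD8 gate cells and CD8-free T cells kept their direction and stayed past the threshold, leaving out the 3 of Cd4 in cells chosen by Cd4. The counts of 286 higher and 313 lower genes moved by over 1.5 times in 2 cases, to 205 lower without control 1 (205 to 287 lower with each library left out) and to 188 higher in gate cells without a Cd4 UMI. Of the 599 calls, 308 were shared with the fit without Cd4 cells (51.4%, and 55.5% of its own; 305 in the same direction), 325 with that on matched CD8-free T cells (54.3%, and 57.3% of its own) and 244 with both choices at once (40.7%, and 46.5% of its own; 238 in the same direction).

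Between genotypes, the 2 higher and 0 lower genes became 6 higher by DESeq2, 80 higher and 53 lower without the filter on low counts, and 1 higher under the strict cell filter. They became 0 higher with the top 5% of Scrublet scores removed, with 2 or more UMIs of Cd8a and Cd8b1, without Cd4 cells, after thinning and without cells with the 10 non-T markers. The log2 differences stayed at 2.36 and 1.74 for Mgl2 and Lilr4b with Scrublet removal (adjusted p = 0.0596 for both) and at 1.94 and 1.91 with 2 or more UMIs. With 1 library left out the range was 0 to 41 higher and 0 to 43 lower, both highest without control 2. Without control 1 there were 1 higher and 3 lower, without knockout 3 there were 8 higher, and without knockout 1 or 2 there were 0. The replicate numbers of the groups share a number only: deviations correlated at −0.0906 for number 1 and −0.0937 for number 2, and a replicate block gave 15 higher and 0 lower, the 4 class II genes among them (adjusted p = 0.000289 to 0.000293). Directions turned for Gzmk, 0.11 in the main comparison (−0.22 without control 1, −0.34 without knockout 2), for Sap18 (0.031), Gzmb (0.012), Cxcr6 (−0.055) and Eomes (0.36) without Cd4 cells, and for Cd74 (−1.04) and Ifng (−0.42) without cells with the 10 non-T markers. The share difference of −0.671 ranged from −1.91 to 0.568 with 1 library left out.

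In the Cd4 split, 1 higher and 0 lower became 0 by DESeq2, 3 and 1 without the filter, 76 and 37 without thinning and 0 with Scrublet removal, and 1 to 2 higher and 0 lower with 1 library left out. For the interaction, 10 and 16 became 1 and 0 by DESeq2, 28 and 49 without the filter, and 17 to 40 and 20 to 124 with 1 library left out. Directions turned for Gzmk (−0.75 to 0.27 with 1 library left out, positive without control 2 and, at 0.14, without knockout 3) and Eomes (−2.47 to 0.34, positive without control 2). The cause was not tested for any of these. Leaving out gate cells with any fixed non-T marker was not run, since under 10 cells stayed in 4 of 5 libraries. Depth limits the gate to cells with enough UMIs, and only 59 to 313 cells a library stand behind each value.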
